A study of Homo sapiens with 6 samples.

Results

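Box H/ACA small nucleolar RNAs, whose gene symbols start with SNORA, were examined in short RNA sequencing of Caco2 cells, an established human line of colon epithelial origin. Members were the rows with an NR_ name whose RefSeq symbol starts with SNORA, and 28 of the 3437 deposited rows met this rule. The study compared Caco2 WT with PIWIL2 KO, to ask what short RNA changes when PIWIL2, a PIWI protein that binds small RNAs, is depleted. The labels list 3 samples of each genotype, 6 in all, grown to confluency. The PIWIL2 KO cells are 1 clone of the same line, made with CRISPR/Cas9, and per the study's account of the clone it kept an unaffected allele and part of its PIWIL2. An effect of the genotype cannot be told apart from a feature of that clone. PIWIL2 itself was not analysed here, as no row carries its name.

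The table holds 1 value per genotype and strand over the samples of the genotype, as CPM, the read count relative to all reads uniquely mapped to hg19. Single-end short reads cover only part of each gene, so CPM does not tell intact snoRNAs from fragments. No replicate error and no test of the genotypes could therefore be computed. From the steps between low values, 1 read was worth 0.0776 CPM in Caco2 WT compared with 0.0738 CPM in PIWIL2 KO, which gives about 12900000 and 13500000 uniquely mapped reads. The study describes its sequencing values as averages over biological replicates, whereas 76% and 72.8% of low values lay on whole multiples of these steps, and each value was treated as 1 pooled count. If the values are averages of samples scaled one by one, the read numbers and intervals are approximate. Intervals given here are 95% exact intervals on reads estimated in this way (Poisson for a level, Clopper-Pearson for a ratio), and cover counting error only. Without molecular identifiers, PCR copies of 1 molecule cannot be recognised, so the true counting error may be wider. In bulk RNA, fewer cells with an RNA and less RNA per cell cannot be told apart. Of 7 markers of colon epithelium, 2 had a row in the table, at up to 0.11 sense CPM in Caco2 WT and 0.30 sense CPM in PIWIL2 KO. Of 4 markers of other cell types, 1 had a row, and it was at 0, so these short RNA rows say little about cell identity.

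H/ACA snoRNAs fold into a pair of hairpins joined by a single-stranded hinge that carries the H box, and end in a short tail with the ACA box. They sit in a particle with the pseudouridine synthase dyskerin (DKC1) and the proteins NHP2, NOP10 and GAR1, and base pair with ribosomal RNA to place a pseudouridine at a chosen uridine. In human cells nearly all of them are cut out of introns of host genes, many of which encode ribosomal proteins or are non-coding snoRNA host genes (SNHG). The box C/D snoRNAs, with symbols starting with SNORD, guide ribose methylation and served here as a reference only. None of the 6 H/ACA assembly or core proteins looked for, and none of the 4 box C/D proteins, had a row.

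All 28 members lie on the minus strand, as do all 688 rows with an NR_ name, so H/ACA genes of the plus strand were not analysed here. RefSeq lists 182 genes with a SNORA symbol. The members are 123 to 236 bases long, with a median of 134, against a median of 76 for the SNORD rows. Starts come from the row names, and ends from the RefSeq length. An ACA stood 3 bases from the 3′ end in 23 of the 28 members, or 82.1%, in 1 of 68 SNORD rows and in 0 of 28 windows of equal length just after each member. The H box motif ANANNA, searched on the strand of the gene, was present somewhere in all 28 members, but also in 21 of the 28 following windows, so its letters alone mark little. In 15 members it lay in the hinge that RNAfold left unpaired. GC content ran from 35.9% to 57.6%.

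The sequences below are SNORA71D, SNORA44, SNORA64 and SNORA7B, 4 of the 5 members with the highest mean CPM, of which SNORA64 also has the lowest ratio among members with a mean of 1 CPM or more, and the other SNORA71 copies, which show how alike that family is. SNORA7A, the remaining one of the 5, is described by its differences from SNORA7B. They were read from the hg19 (GRCh37) genome and run 5′ to 3′, with the ACA box and an H box in the unpaired hinge in capitals where each was found.
SNORA71D, chr20:37062505-37062642, minus strand: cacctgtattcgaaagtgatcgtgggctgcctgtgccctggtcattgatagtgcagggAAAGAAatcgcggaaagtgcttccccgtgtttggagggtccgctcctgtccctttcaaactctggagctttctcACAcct
SNORA71B, chr20:37053843-37053978, minus strand: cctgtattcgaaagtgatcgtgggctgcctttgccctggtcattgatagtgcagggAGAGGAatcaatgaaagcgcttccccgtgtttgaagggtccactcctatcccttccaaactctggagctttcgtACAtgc
SNORA71A, chr20:37055949-37056086, minus strand: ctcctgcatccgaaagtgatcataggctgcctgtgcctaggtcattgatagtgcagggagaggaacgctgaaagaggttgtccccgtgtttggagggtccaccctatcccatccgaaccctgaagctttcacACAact
SNORA7B, chr3:129116053-129116191, minus strand: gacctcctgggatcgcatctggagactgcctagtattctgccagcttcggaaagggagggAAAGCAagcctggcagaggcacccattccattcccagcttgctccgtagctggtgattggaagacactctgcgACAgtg
SNORA44, chr1:28906893-28907024, minus strand: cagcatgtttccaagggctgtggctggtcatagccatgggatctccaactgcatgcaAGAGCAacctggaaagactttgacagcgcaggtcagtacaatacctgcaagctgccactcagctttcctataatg
SNORA64, chr16:2012974-2013107, minus strand: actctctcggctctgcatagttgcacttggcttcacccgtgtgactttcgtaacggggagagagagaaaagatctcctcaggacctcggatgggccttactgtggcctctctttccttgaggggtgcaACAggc
SNORA44 has no ACA 3 bases from the end of this window, and neither do SNORA25, SNORA58, SNORA65 and SNORA72. SNORA71A, SNORA71B and SNORA71D were 80.7% to 87% identical in pairwise alignments. SNORA7A and SNORA7B were 98.6% identical and differ at 2 of 139 positions, C26G and T114C, counted from 1 at the 5′ end with the SNORA7B base first. For SNORA7A 66.7%, and for SNORA7B 72.5%, of all 20-base stretches occur elsewhere in the genome, against a median of 14.3% over the members. Short reads from SNORA7A and SNORA7B can therefore fit both genes, and the split between them is uncertain. SNORA9 and SNORA8 also share much of their sequence with other places, at 56.1% and 50% of their 20-base stretches. The 2 SNORA17 genes were only 58.5% identical and had no 20-base stretch in common.

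All signal was on the sense strand. Antisense CPM was 0 in both genotypes for each of the 28 members, which leaves room for 3 reads, or 0.233 CPM (Caco2 WT) and 0.221 CPM (PIWIL2 KO). The SNORD rows had no antisense CPM either. Of all 3437 rows only 175 had any, so a lack of antisense CPM is common to most rows.

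H/ACA snoRNAs were a small part of the snoRNA signal. The 28 members summed to 20.8 sense CPM in Caco2 WT, about 268 reads, and to 37.9 sense CPM in PIWIL2 KO, about 513 reads. The ratio of these sums was 1.82, a log2 ratio of 0.86 (counting interval 0.65 to 1.08). The 68 SNORD rows summed to 4373 and 6029 sense CPM, so SNORA rows held 0.473% of the CPM of both classes in Caco2 WT and 0.624% in PIWIL2 KO. Per 100 bases of gene length, the median level of a SNORA gene was 0.295 CPM in Caco2 WT compared with 0.806 CPM in PIWIL2 KO, and that of a SNORD row 7.45 and 13.2 CPM. The SNORD medians were 25.3 and 16.4 times the SNORA medians on this scale. Division by length widens the gap, as SNORA genes are longer. Undivided, the medians in Caco2 WT were 0.39 CPM for SNORA and 7.06 CPM for SNORD, and in PIWIL2 KO 1.03 and 12.7 CPM. The highest SNORA levels per 100 bases were 2.23 CPM for SNORA44 in Caco2 WT and 3.53 CPM for SNORA7A in PIWIL2 KO, and 46 and 50 SNORD rows lay above them. The 5 SNORD rows with the highest mean were SNORD44, SNORD74, SNORD30, SNORD31 and SNORD17, at 174 to 1358 CPM in Caco2 WT and 607 to 1277 CPM in PIWIL2 KO.

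**Figure D1:**
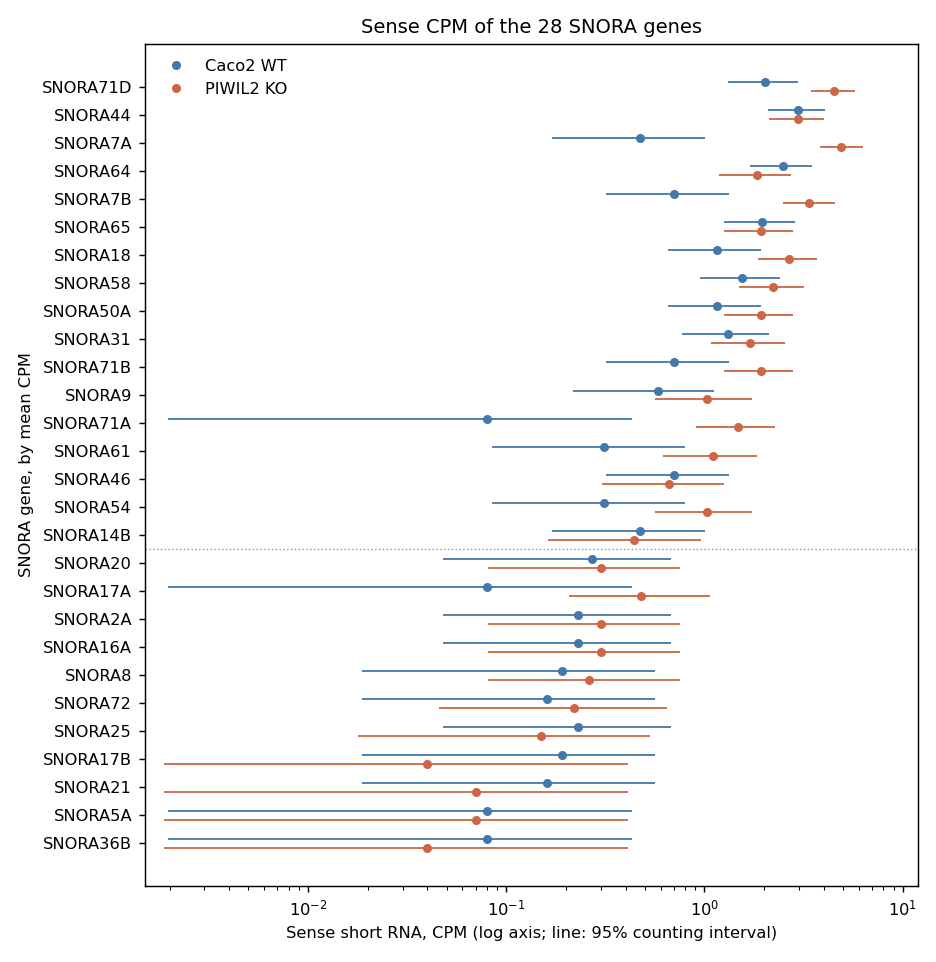
Sense CPM (log axis) of each of the 28 SNORA genes in Caco2 WT (blue) and PIWIL2 KO (orange), ordered by the mean of both. Points are the pooled values, lines are 95% Poisson counting intervals, and the dotted line separates the 17 genes whose mean reached 0.3 CPM from the 11 below it. The intervals of SNORA7A, SNORA7B, SNORA71D and SNORA71A do not overlap between the genotypes, and the share of such rows over the whole table was not computed.

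The members ranged from 0.08 to 2.95 CPM in Caco2 WT, with a median of 0.39, and from 0.04 to 4.91 CPM in PIWIL2 KO, with a median of 1.03. Members high in one genotype tended to be high in the other, with a Spearman rho of 0.79 over the 28 genes, which share both libraries. Of the 28, 18 were higher in PIWIL2 KO, 9 lower and 1 equal. Over all 3437 rows, 755 were higher, 788 lower and 1894 equal, with 1693 at 0 sense CPM in both genotypes. Counts and medians of the ratio were taken over the 17 members whose mean reached 0.3 CPM, and log2 ratios were taken with 0.1 CPM added to each value, so that changes of low genes appear smaller. Of these 17, 12 were higher and 4 lower in PIWIL2 KO, and SNORA44 was equal, where 68.9% of the 161 rows of the table past the same minimum were higher. These 161 rows include the 17 members and 64 SNORD rows, and 57 of those SNORD rows were higher. The share among the members was thus close to a background made up in large part of snoRNAs. A background without snoRNA rows was not computed. The median log2 ratio of the 17 was 0.73, against 0.48 over the 161 rows.

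By at least 2-fold, 8 of the 17 were higher and 0 lower, where 27.3% of the 161 rows were higher and 8.7% lower by this measure. The counting interval of the ratio lay above 1 for the same number of members, 8, and below 1 for 0, where the background is 41.6% and 9.94%. These members were SNORA71D, SNORA7A, SNORA7B, SNORA18, SNORA71B, SNORA71A, SNORA61 and SNORA54. CPM depends on what it is scaled to. With both genotypes set to 1 total over all sense rows, which shifts log2 ratios by -0.43, 11 members were higher and 6 lower, and SNORA31 was the 1 member that turned. With the median SNORD row set equal, a shift of -0.63, 10 were higher and 7 lower, and SNORA58 and SNORA31 turned. On that scale the log2 ratio of the summed members was 0.23, and 3 genes kept an interval above 1, SNORA7A, SNORA7B and SNORA71A, while that of SNORA64 lay below 1. Both scales rest mainly on SNORD rows, which held 4373 of 5511 sense CPM in Caco2 WT and 6029 of 7409 in PIWIL2 KO. The matching shares over the 161 rows were not computed on these 2 scales, so these counts have no background beside them.

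**Figure D2:**
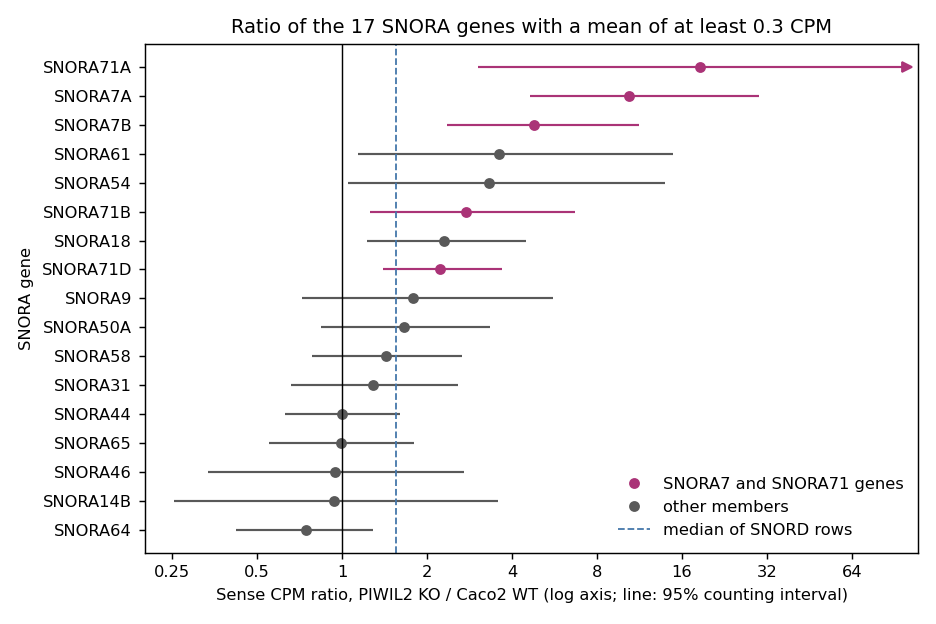
Ratio of sense CPM, PIWIL2 KO over Caco2 WT (log axis), of the 17 SNORA genes whose mean reached 0.3 CPM, with 95% counting intervals as lines. The arrow marks an interval that runs past 100, the black line a ratio of 1 and the dashed line the median of the SNORD rows. The 5 SNORA7 and SNORA71 genes (purple) have intervals above 1, and SNORA64 has the lowest ratio, 0.746.

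The SNORA7 pair, annotated as guides for the large-subunit ribosomal RNA, had the largest difference in summed CPM among the families with several members. SNORA7A, within RPL32, which encodes a ribosomal protein, was at 0.47 CPM in Caco2 WT (6 reads) and 4.91 CPM in PIWIL2 KO (67 reads), a ratio of 10.4 (4.63 to 30). SNORA7B, in an intron of a long non-coding RNA on the same chromosome, was at 0.70 and 3.36 CPM, a ratio of 4.8 (2.35 to 11.3). Their Poisson intervals did not overlap between the genotypes, though how often this holds over all rows was not computed. As reads can be split between the 2 copies, the pair was also summed, at 1.17 CPM in Caco2 WT compared with 8.27 CPM in PIWIL2 KO, with a log2 ratio of 2.72 (2.05 to 3.71). Both copies also share 20-base stretches with sequence annotated as SNORA7, so the sum may hold reads from outside the pair.

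The 3 SNORA71 genes, which are annotated as guides for the small-subunit ribosomal RNA, all lie within the non-coding host gene SNHG17. SNORA71D, the member with the highest mean, was at 2.02 CPM in Caco2 WT compared with 4.50 CPM in PIWIL2 KO, with a ratio of 2.23 (1.39 to 3.68). SNORA71B was at 0.70 and 1.92 CPM, a ratio of 2.74 (1.25 to 6.67). SNORA71A rested on 1 read in Caco2 WT, 0.08 CPM, and 20 reads in PIWIL2 KO, 1.48 CPM, so its ratio of 18.5 has an interval from 3.04 to 789. The 3 intervals overlap each other, and each lies above 1. Summed, the genes were at 2.80 CPM in Caco2 WT compared with 7.90 CPM in PIWIL2 KO, with a log2 ratio of 1.46 (0.94 to 2.09). SNORA71A and SNORA71D share 20-base stretches with SNORA71C, which is not a member, so this sum may hold reads from it.

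Together the SNORA7 and SNORA71 genes, 5 of the 28 members, made up 19.1% of the SNORA signal in Caco2 WT and 42.7% in PIWIL2 KO, and held 71.4% of the difference between the summed levels. The other 23 members summed to 16.8 CPM in Caco2 WT compared with 21.7 CPM in PIWIL2 KO, with a log2 ratio of 0.37 (0.11 to 0.63). This is smaller than the shift under either of the other scalings, so the direction of that sum turns there. The 5 genes were grouped after their values were seen.

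Among the other members past the minimum, 3 had a counting interval above 1. SNORA18, within TAF1D, a subunit of the RNA polymerase I selectivity factor, was at 1.16 CPM in Caco2 WT compared with 2.66 CPM in PIWIL2 KO, with a ratio of 2.29 (1.22 to 4.49). SNORA61, in an intron of the non-coding host gene SNHG12, was at 0.31 and 1.11 CPM, or 4 and 15 reads, a ratio of 3.58 (1.14 to 14.8). SNORA54, in an intron of NAP1L4, which encodes a nucleosome assembly protein, was at 0.31 and 1.03 CPM, or 4 and 14 reads, a ratio of 3.32 (1.05 to 13.9). None of the 3 kept an interval above 1 under either of the other scalings.

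The remaining 9 members past the minimum had intervals that include 1. SNORA44, annotated as a guide for the small-subunit ribosomal RNA and within SNHG12, was the highest member in Caco2 WT and was at 2.95 CPM in both genotypes, a ratio of 1.00 (0.626 to 1.60). SNORA65, in an intron of the ribosomal protein gene RPL12, was at 1.94 CPM in Caco2 WT compared with 1.92 CPM in PIWIL2 KO. SNORA64, in an intron of the ribosomal protein gene RPS2, was at 2.48 and 1.85 CPM, a ratio of 0.746 (0.422 to 1.29). These are 3 of the 6 members with the highest mean, and none was higher in PIWIL2 KO. The intervals still allow ratios of up to 1.60, 1.79 and 1.29.

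SNORA58, in an intron of the mitochondrial ribosomal protein gene MRPL3, was at 1.55 CPM in Caco2 WT compared with 2.21 CPM in PIWIL2 KO. SNORA50A and SNORA46 lie in introns of CNOT1, the scaffold of the CCR4-NOT deadenylase. SNORA50A was at 1.16 and 1.92 CPM, and SNORA46 at 0.70 and 0.66 CPM, so that these neighbours in 1 host stood on either side of equality, each within counting error. SNORA31, within TPT1, the gene of translationally controlled tumour protein, was at 1.32 CPM in Caco2 WT compared with 1.70 CPM in PIWIL2 KO. SNORA9, within the non-coding host gene SNHG15, was at 0.58 and 1.03 CPM. SNORA14B, in an intron of TOMM20, a receptor of mitochondrial protein import, was at 0.47 and 0.44 CPM, 6 reads in each genotype. Equal whole reads give a CPM ratio of 0.951, so SNORA14B and SNORA46, with 9 reads in each, count as lower on equal reads.

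The 11 members below the minimum were at most at 0.27 CPM in Caco2 WT compared with 0.48 CPM in PIWIL2 KO, with 24 and 30 reads in all. They were SNORA20, SNORA17A, SNORA2A, SNORA16A, SNORA8, SNORA72, SNORA25, SNORA17B, SNORA21, SNORA5A and SNORA36B. None had a counting interval that left out 1. Each rested on under 10 reads in both genotypes together, so at most a large difference could have been seen at this depth.

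The 28 members lie in 20 host genes, with 1 host taken per member and host transcripts annotated as retained introns left out. On this basis, 18 members lie in an intron clear of host exons and 10 overlap an exon of at least 1 host transcript. By class of host, the 5 members in ribosomal protein genes summed to 5.21 CPM in Caco2 WT compared with 8.97 CPM in PIWIL2 KO, and without SNORA7A to 4.74 and 4.06 CPM, which turns the log2 ratio of the sum from 0.77 to -0.22 (-0.77 to 0.33). This and the values without other genes below were chosen after seeing the data. Of the 3 of them past the minimum the median log2 ratio was -0.01. The 9 members in SNHG genes summed to 7.14 and 13.8 CPM, a log2 ratio of 0.94 (0.58 to 1.33), with a median of 1.23 over 6. Without the SNORA71 genes they summed to 4.34 and 5.91 CPM, a log2 ratio of 0.44 (-0.07 to 0.96). The 14 members in other hosts summed to 8.45 and 15.1 CPM, a log2 ratio of 0.83 (0.50 to 1.19), with a median of 0.58 over 8. Without SNORA7B they summed to 7.75 and 11.7 CPM, a log2 ratio of 0.59 (0.23 to 0.97). The intervals of the 3 classes overlap.

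**Figure D3:**
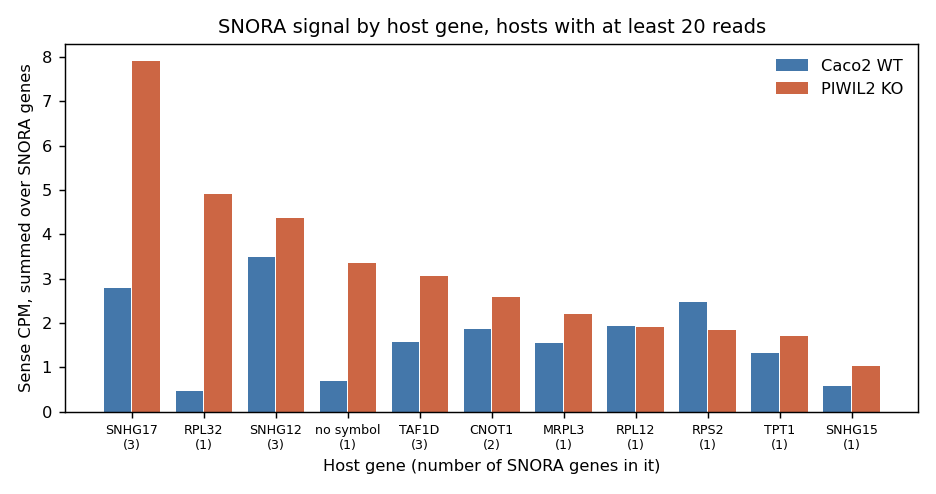
Sense CPM summed over the SNORA genes of each host gene, for the 11 hosts with at least 20 estimated reads in both genotypes together, in Caco2 WT (blue bars) and PIWIL2 KO (orange bars), 1 pooled value per bar. The host with no symbol is the long non-coding gene around SNORA7B. SNHG17 goes from 2.80 to 7.90 CPM, while RPS2 goes from 2.48 to 1.85 CPM.

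Of the hosts with several members, SNHG17 had the largest difference. The 3 members in TAF1D summed to 1.58 CPM in Caco2 WT compared with 3.07 CPM in PIWIL2 KO, with a log2 ratio of 0.92 (0.20 to 1.84). The 3 in SNHG12 summed to 3.49 and 4.36 CPM, a log2 ratio of 0.31 (-0.27 to 0.91), and the 2 in CNOT1 to 1.86 and 2.58 CPM, a log2 ratio of 0.45 (-0.32 to 1.29). The 2 in SNHG7 summed to only 0.27 and 0.52 CPM. For SNHG12 and CNOT1 the log2 ratio of the sum is smaller than the shift of -0.63 in size, so its direction is not set by these data.

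Box C/D snoRNAs shared 2 of these hosts. In TAF1D, SNORD5 was at 11 CPM in Caco2 WT compared with 20.1 CPM in PIWIL2 KO, with a log2 ratio of 0.87, and SNORD6 at 9.54 and 13.2 CPM, a log2 ratio of 0.47, beside 1.13 for SNORA18. Per 100 bases SNORD5 was at 15.1 CPM in Caco2 WT, against 0.879 CPM for SNORA18. Without division by length the values were 11 and 1.16 CPM. Short-read CPM thus differed widely within 1 host, and whether the RNA levels differ was not tested. In SNHG12, SNORD99 was at 0.16 and 1.18 CPM, or 2 and 16 reads, a ratio of 7.37 (1.79 to 68.2), while of the H/ACA members in the same host SNORA61 had a ratio of 3.58 (1.14 to 14.8), SNORA16A 1.3 (0.215 to 8.66) and SNORA44 was equal.

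**Figure D4:**
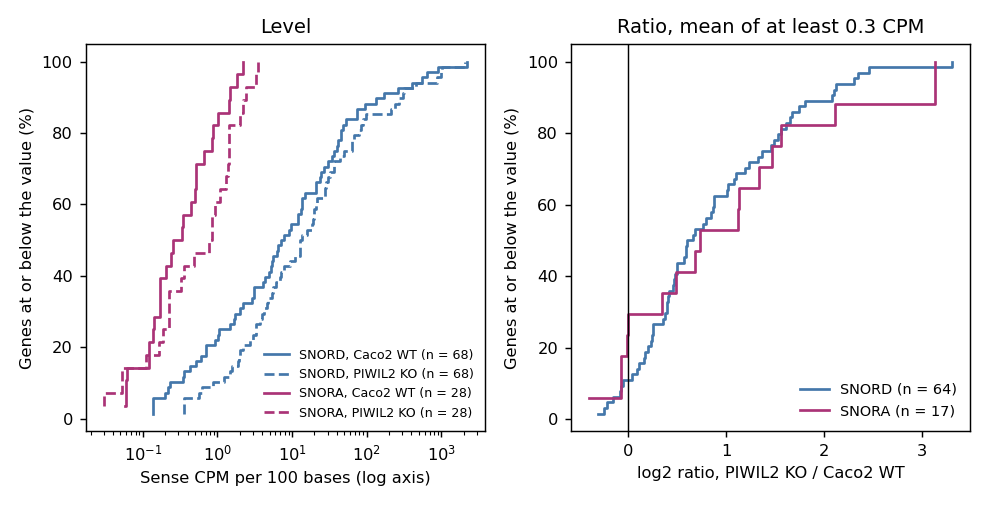
Cumulative share of genes (%) by sense CPM per 100 bases (left, log axis) for 28 SNORA genes and 68 SNORD rows in Caco2 WT (solid) and PIWIL2 KO (dashed), and by log2 ratio of PIWIL2 KO to Caco2 WT (right) for the 17 and 64 whose mean reached 0.3 CPM. The SNORA curves lie at lower levels than the SNORD curves, while the medians of the ratio are close, at 0.73 and 0.63.

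The median log2 ratio of the H/ACA members was near that of the box C/D rows, but other measures differed. The log2 ratio of the summed CPM was 0.86 (0.65 to 1.08) for SNORA and 0.46 (0.45 to 0.48) for SNORD. Of the 17 members past the minimum, 12 were higher in PIWIL2 KO. Of 64 SNORD rows past the minimum, 57 were higher in PIWIL2 KO and 7 lower, 24 by at least 2-fold higher and 0 lower, and their median log2 ratio was 0.63. The difference of the medians, SNORA minus SNORD, was 0.10, and became -0.22 without the SNORA7 and SNORA71 genes. Over the 28 members, Spearman rho of the log2 ratio was 0.19 with length, 0.21 with GC content and 0.31 with the share of 20-base stretches found elsewhere, given as descriptions of genes that share the same libraries.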

How the data were processed

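Short RNA was sequenced from Caco2 WT (3 samples) and PIWIL2 KO (3 samples). Per the study's methods, the authors trimmed the adapter with Cutadapt 1.15, ran the piPipes small RNA pipeline and scaled counts to reads uniquely mapped to hg19. They deposited CPM (also called RPM) in 4 columns, 1 value per genotype and strand, described in the study as an average over replicates and treated here as pooled counts, in rows named as 3′ ends of RefSeq transcripts. How reads fitting several genes were assigned is not given in the sources used here.

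From these values the CPM of 1 read was estimated at steps in values of 0.06 to 3 CPM. Of these low values, 76% (Caco2 WT) and 72.8% (PIWIL2 KO) were whole reads within 0.006 CPM. Of the 56 member values, 46 were whole reads and 10 lay midway between 2 whole numbers. Reads were rounded to whole numbers for exact intervals (scipy 1.17.1), so there is no count test. The steps were checked on simulated data. Log2 ratios used a pseudocount of 0.1 CPM, and counts a minimum mean of 0.3 CPM. Symbols, lengths and the SNORA count came from RefSeq (GRCh38 table, with none of its coordinates), hosts from GENCODE 44 on GRCh37, with 20 members matching a GENCODE snoRNA gene. Folds came from RNAfold 2.7.2. Every member past the minimum was named, with its host, the 5 highest SNORD rows and those sharing a host. Sequences were printed by mean and ratio, except that SNORA7A is described by its differences from SNORA7B. SNORA71B and SNORA71A were printed to show their family, and SNORA71A was added after its values were seen. The members and lists were chosen with earlier results of these data known. Alternatives changed the pseudocount, minimum, scaling and members.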

Additional observations from a re-analysis of the deposited data

How the results depend on the processing

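Under 14 alternative settings, 4 of them chosen after seeing the data, 65 of 84 recomputed values stayed within their intervals or, for counts, within 1.5 times. The other 19 moved. A reversal was scored only for the summed log2 ratio, where there were 0. For the median log2 ratio the interval, -0.25 to 1.88, was the median of the lower and of the upper bounds of single genes. The difference of medians was given the same width, -0.88 to 1.25. Both are wide, and neither value was scored as moved. Taking 1 value per gene symbol could not change the SNORA values, as each member has its own symbol. The log2 ratio of the summed members, 0.86, was 0.44 when scaled to the total of all sense rows, 0.23 when scaled to the median SNORD row, 0.34 without members that have a paralog, 0.61 with only members in introns clear of host exons, 0.59 without the SNORA7 pair, 0.37 without the SNORA7 and SNORA71 genes, and 0.59 with only members at whole reads. The count of members higher in PIWIL2 KO, 12, was 6 without members that have a paralog, 6 with only members in clear introns and 7 without the SNORA7 and SNORA71 genes. The count at least 2-fold higher, 8, was 3 with a pseudocount of 1 CPM, 5 with a minimum mean of 1 CPM, 5 and 3 under the 2 scalings, 3 without paralogs, 4 in clear introns, 5 without the SNORA71 genes and 3 without both families. The counts fell in part because fewer genes were left. The count at least 2-fold lower, 0, was 1 with no minimum, where values rest on single reads. The difference of the SNORA and SNORD medians, 0.10, ran from -0.42 with no minimum to 0.13 with a pseudocount of 0.01 CPM, so its sign is not set.

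No paired analysis was possible because the table gives the samples of a genotype as 1 value. Leaving out each replicate was not run, as there are no replicate columns. No ratio was formed for the antisense sum, which is 0 in both genotypes. Depth limits the low members, since 15 of 28 had under 20 reads in both genotypes together.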

Other observations

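For 6 of the 20 host genes a row of their own was found, at under 1 CPM in both genotypes, and its sense CPM is given for Caco2 WT and PIWIL2 KO in turn. SNHG7 was at 0.50 and 0.63 CPM, above the sum of its 2 SNORA genes, 0.27 and 0.52 CPM. The others were below the sum of theirs, with TPT1 at 0.19 and 0.23 CPM, and TOMM20 at 0.12 and 0.18 CPM. SNHG12 was at 0.23 and 0.07 CPM, SNHG17 at 0.12 and 0.07 CPM, and MRPL3 at 0.08 and 0.07 CPM. All 6 were at 0 on the antisense strand. The row of SNHG17 rested on 2 reads in Caco2 WT and 1 in PIWIL2 KO, where the SNORA71 genes within it had 36 and 107, so host RNA of this gene could not be compared between the genotypes at this depth.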
